A study of Mus musculus with 5 samples.

Results

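In murine lung cancer-associated fibroblasts (CAFs), 46 protein-coding genes were nearly silent in the cells carrying the vector and measurable in every sample overexpressing miR-200. They were chosen on these values: each was under 0.5 CPM (counts scaled by the authors to the same total in each sample) in both CAF-vec samples and at 1 CPM or more in each of the 3 CAF-200 samples. *Cxcl14* and *Serpinb2* met the same limits and were left out of the group by its definition, which otherwise held 48 genes. The table holds 21835 genes, of which 21758 are annotated as protein-coding. The reverse limits, under 0.5 CPM in CAF-200 and at 1 CPM or more in CAF-vec, were met by 27 genes. Because the choice used the comparison itself, the differences of the 46 genes between the groups are a description and carry no test.

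The study asked how miR-200 changes CAFs, which are fibroblasts taken from tumors. CAF-VEC (CAF-vec here, 2 samples, genotype labelled WT control) and CAF-200 (3 samples, labelled miR-200 overexpression) are lung CAFs of the mouse. Per the labels, CAFs received the miR-200b, miR-200a, miR-429 cluster in a lentiviral pLVX-Neo construct and were kept under G418 for over 2 weeks, whereas the methods name a hygromycin vector and normal lung fibroblasts as the cells infected. The 2 groups shared the same serum-containing alpha-MEM. The promoter that drives the cluster, the age of the mice and whether a population is 1 clone or a pool are not given in the sources used here. The methods describe 3 RNA extractions from each population, whereas 2 CAF-vec samples are in the labels and table used here. The labels do not say whether samples of a group were separate cultures, so *p* values measure only the spread between these samples, which may be technical.

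The miR-200 family is best known for holding epithelial cells in their epithelial state. It binds sites in the 3′-UTRs of *Zeb1* and *Zeb2* mRNA, which encode repressors that sit on E-box motifs in the promoters of epithelial genes. Fibroblasts normally express ZEB1 and ZEB2, have little miR-200, and keep most epithelial genes silent. A miRNA recognizes its targets mainly through its seed, and the mature miRNAs of the overexpressed cluster are shown here because they carry 2 different seeds, with bases 2 to 8 in capitals (RefSeq, GRCm38.p6, minus strand of chromosome 4, 5′ to 3′).
miR-200b-3p: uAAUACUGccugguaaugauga
miR-429-3p: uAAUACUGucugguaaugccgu
miR-200a-3p: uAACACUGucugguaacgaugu
These lie at chr4:156055685-156055706, chr4:156053916-156053937 and chr4:156054911-156054932, in the order printed. miR-200b and miR-429 share a seed, whose match in an mRNA reads CAGTATT, while the match of miR-200a reads CAGTGTT. The libraries measured mRNA, so the miRNAs themselves have no value here.

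The samples carried most fibroblast markers, and neither *Zeb* gene was past the thresholds. *Zeb1* was 43.5 and 50.7 CPM in CAF-vec and 37.8, 37.5 and 34.1 CPM in CAF-200, groups that did not overlap, with a log2 fold-change of -0.36 that missed the threshold (limma adjusted *p* = 0.0504). *Zeb2* was 46.2 and 29.8 CPM in CAF-vec and between 31.1 and 31.9 CPM in CAF-200 (limma adjusted *p* = 0.374). Of 11 fibroblast markers 10 were expressed highly enough to be tested, among them *Vim* at 2085 CPM or more and *Pdgfra* at 83.7 CPM or more in every sample, whereas *Fap* was under 0.5 CPM in all of them. The depth of the samples is not given, but low values clustered at whole multiples of a step of 0.00952 to 0.0102 CPM. Between 86.4% and 99.1% of values from 0.005 to 0.2 CPM lay within 0.1 step of a multiple in 4 samples, and 57.0% in CAF-vec 1. If a step is 1 counted read, which no source states, the limits of 0.5 and 1 CPM stand for 49.0 to 52.5 and 98.0 to 105 reads. The CAF-vec pair differed more from each other (SD of the log2 difference over the genes tested 0.490) than the CAF-200 samples did (0.192 to 0.204).

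Together the 46 genes came to 11.4 and 11.8 CPM in CAF-vec and reached 108.9, 99.3 and 113.8 CPM in the samples of CAF-200. All 46 entered the fit over 12175 genes, and 39 (84.8%) were past an adjusted *p* of 0.01 and a log2 fold-change of 1 in limma, against 2.37% of all genes tested. The choice fixed that direction, so nothing is read from this count. With any 1 CAF-200 sample left out, limma called 0 or 1 gene of the whole table higher and 0 lower, while 374 to 388 had a log2 fold-change above 1 and 415 to 484 one below -1 at an unadjusted *p* under 0.05, so every call given here, higher or lower, rests on all 3 of these samples. On the log2(CPM + 0.5) scale, where fold-changes of low genes are understated, their median log2 fold-change was 1.67 and ranged from 0.68 (*E2f2*) to 4.03 (*Gpx3*), and the median over all genes tested was -0.094. *Syngr4*, *Nkain2* and *E2f2* were below 1 on this scale. The size depended on the pseudocount: with 0.1 CPM added the median was 2.57 (1.02 to 5.12) and 0 genes were below 1, and with 1 CPM added it was 1.23 (0.49 to 3.35), 14 were below 1 and 29 in place of 39 passed the thresholds in limma.

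**Figure D1:**
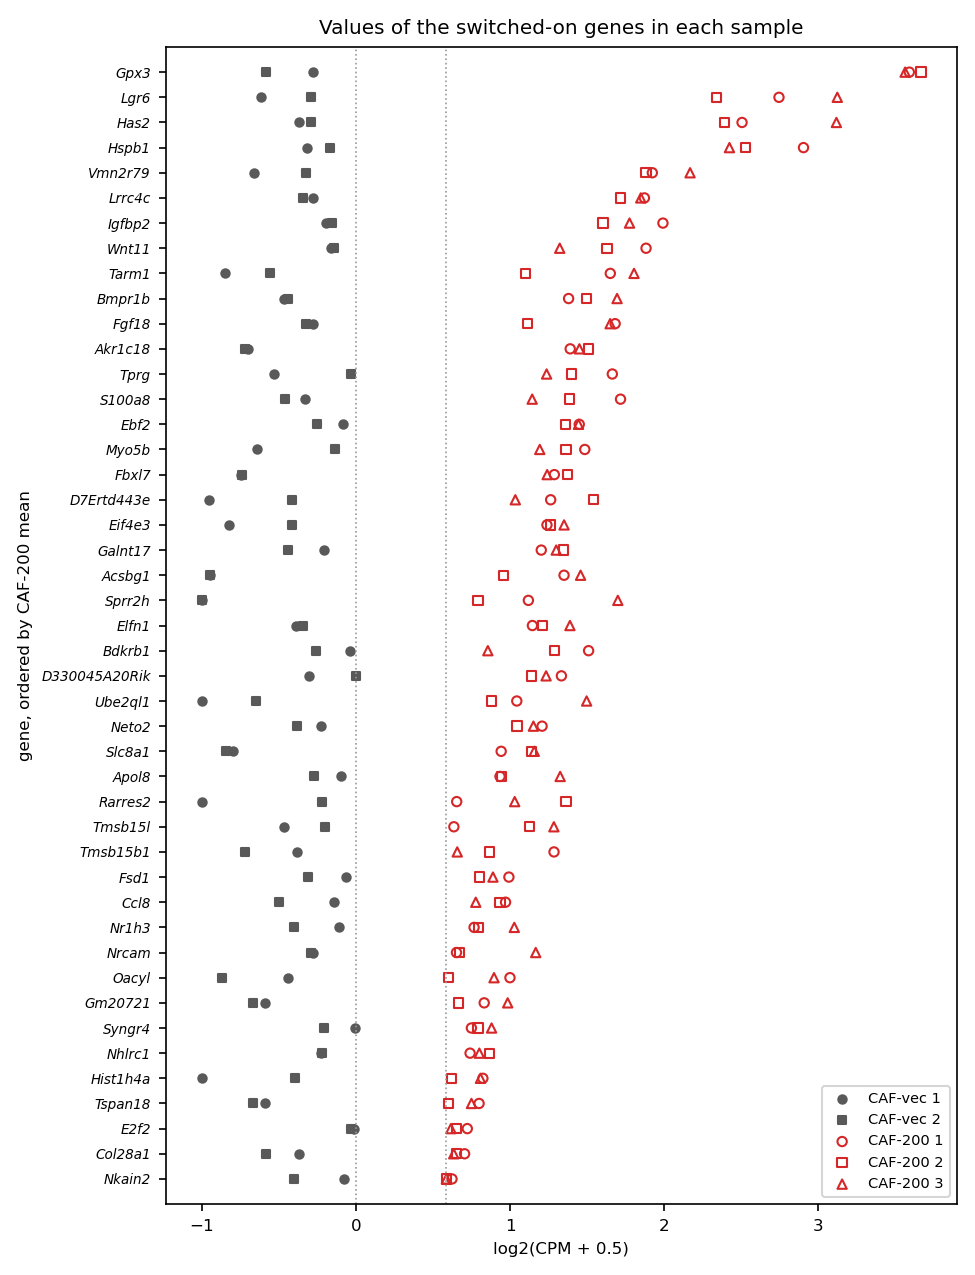
Value of 45 of the 46 genes (rows, ordered by CAF-200 mean CPM) in each sample, on log2(CPM + 0.5); grey filled symbols are the 2 CAF-vec samples, red open symbols the 3 CAF-200 samples, and dotted lines mark the limits of 0.5 and 1 CPM that chose the genes. *Gpx3* stands apart at 11.3 to 12.2 CPM in CAF-200, while most genes lie just past the line of 1 CPM.

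These genes were switched on to a low level. The mean over CAF-200 was under 2 CPM for 29 of them, 5 CPM or more for 4 (*Gpx3*, *Lgr6*, *Has2* and *Hspb1*) and above 10 CPM for *Gpx3*. Among 11940 coding genes with a CAF-200 mean of at least 0.5 CPM the median mean was 23.9 CPM, and none of the 46 reached it. Per kilobase of exon, which allows genes to be compared, the median was 0.608 CPM for the 46 and 4.85 CPM for those coding genes, and *Gpx3* (6.44) and *Hspb1* (5.53) were the 2 above the latter. The next highest per kilobase were *Tmsb15b1* (3.30), *S100a8* (3.18), *Ccl8* (2.67) and *Sprr2h* (2.51).

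**Figure D2:**
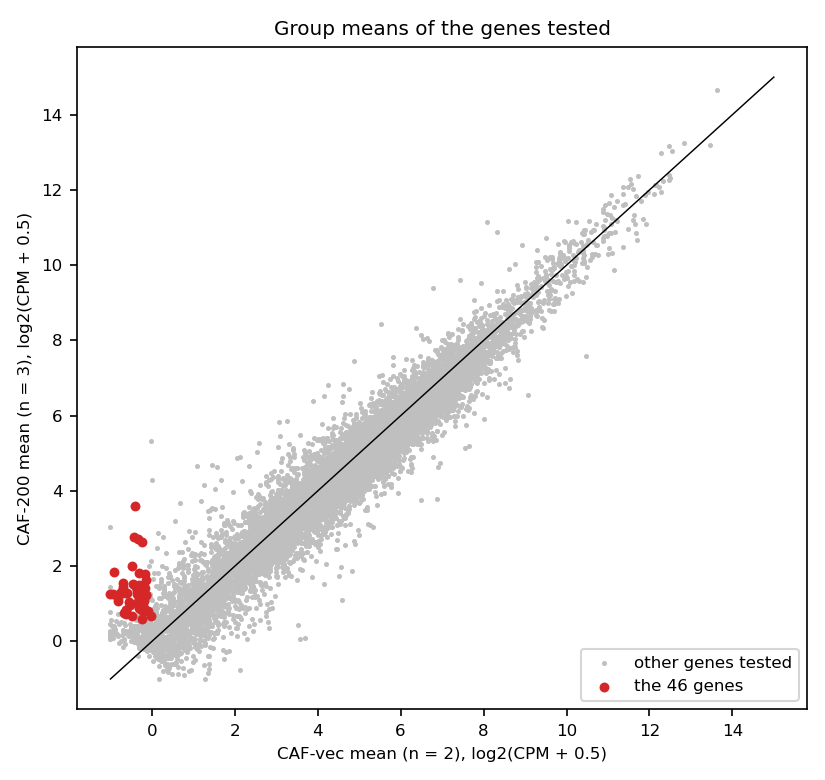
Group mean CPM of every gene tested in CAF-vec (x axis, n = 2) and CAF-200 (y axis, n = 3), drawn as log2(mean CPM + 0.5); the 46 genes are red, the other genes grey and the line marks equal means. Because means were taken before the log, the distance from the line is not the fitted log2 fold-change. The 46 genes fill the lower left corner above the line, with CAF-200 means of at most 11.7 CPM.

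Nor were most of them wholly absent from CAF-vec. Both CAF-vec samples listed *Sprr2h* alone at 0, and *Ube2ql1*, *Rarres2* and *Hist1h4a* were listed at 0 in CAF-vec 1 only. Below 0.1 CPM were 11 genes in CAF-vec 1 and 6 in CAF-vec 2. For the 42 genes above 0 in both, the ratio of the group means ran from 2.23 (*E2f2*) to 101 (*Acsbg1*) with a median of 7.61, and it was 4 or more for 36, 10 or more for 14 and 20 or more for 8. In 9 genes the lowest CAF-200 sample was less than 3 times the highest CAF-vec sample.

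The limits cut through a continuous range. Just inside the limit for CAF-vec, *D330045A20Rik* was 0.312 and 0.499 CPM in CAF-vec against 2.02, 1.71 and 1.85 CPM in CAF-200. *Syngr4* was 0.496 and 0.368 CPM in CAF-vec against 1.18, 1.23 and 1.34 CPM in CAF-200, and *E2f2* had its highest CAF-vec value at 0.494 CPM. Each of these genes was near the limit in 1 or both CAF-vec samples and clear of it in every CAF-200 sample. Just outside the limit, *Rab15* was 0.515 and 0.428 CPM in CAF-vec against 1.89, 1.92 and 1.80 CPM in CAF-200. *Vmn1r44* was 0.131 and 0.520 CPM against 2.00, 1.66 and 1.49 CPM, and *Tmem35a* 0.526 and 0.398 CPM against 1.77, 1.72 and 1.76 CPM. In each of these genes 1 CAF-vec sample was above the limit and the groups did not overlap. Inside the limit for CAF-200, *Nkain2* was 0.447 and 0.258 CPM in CAF-vec against 1.04, 1.00 and 1.00 CPM in CAF-200. *Tspan18* was 0.166 and 0.129 CPM against 1.24, 1.02 and 1.18 CPM, and *Oacyl* 0.237 and 0.0488 CPM against 1.5, 1.02 and 1.36 CPM. All CAF-200 samples of *Nkain2* lay at the limit, and in *Tspan18* and *Oacyl* only CAF-200 2 did. Outside it, *Als2cr12* was 0.364 and 0.409 CPM in CAF-vec against 1.12, 0.976 and 1.40 CPM in CAF-200. *Lancl3* was 0.394 and 0.439 CPM against 1.08, 0.955 and 1.23 CPM. *Ccr1*, a chemokine receptor, was 0.0175 and 0.119 CPM in CAF-vec and 1.00, 0.956 and 1.55 CPM in CAF-200.

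Secreted ligands, antagonists and binding proteins made up 7 of the 46 genes. *Igfbp2* (chr1:72824503-72852474), a carrier of insulin-like growth factors, was 0.374 and 0.399 CPM in CAF-vec and 3.48, 2.54 and 2.92 CPM in CAF-200. *Wnt11* (chr7:98835112-98855195), a Wnt ligand usually assigned to β-catenin-independent signaling, was 0.394 and 0.409 CPM in CAF-vec and 3.19, 2.59 and 2.00 CPM in CAF-200. *Wnt11* was highest in CAF-200 1 and lowest in CAF-200 3. *Fgf18* (chr11:33117430-33147400), a growth factor with roles in lung and cartilage development, was 0.325 and 0.299 CPM in CAF-vec and 2.71, 1.66 and 2.64 CPM in CAF-200.

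The remaining secreted products are known for their action on leukocytes. *S100a8*, a calcium-binding protein that neutrophils store and release as a complex with S100A9, was 0.295 and 0.228 CPM in CAF-vec and 2.79, 2.11 and 1.71 CPM in CAF-200. Its partner *S100a9* was listed at 0 in all 5 samples. *Ccl8*, a chemokine for monocytes and lymphocytes and the only one of the 46 on the list of cytokines and chemokines, was 0.407 and 0.208 CPM in CAF-vec and 1.46, 1.41 and 1.21 CPM in CAF-200. *Rarres2*, which encodes the chemoattractant and adipokine chemerin, was listed at 0 and at 0.360 CPM in CAF-vec and was 1.07, 2.07 and 1.54 CPM in CAF-200. *Rarres2* overlaps *Lrrc61* on the opposite strand, a gene at 15.6 to 21.5 CPM in all samples, and since the strand setting of the counting is not given in the sources used here its low values are uncertain. Of the chemerin receptors, *Cmklr1* and *Gpr1* were under 0.5 CPM in every sample, and *Ccrl2* was 0.193 and 0.389 CPM in CAF-vec against 0.322, 0.413 and 0.610 CPM in CAF-200, with overlap between the groups.

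Cell surface receptors numbered 5. *Lgr6* (ENSMUSG00000042793, chr1:134983301-135105276), a receptor for R-spondins that enhances Wnt signaling and marks several kinds of stem cell, was 0.153 and 0.319 CPM in CAF-vec and 6.20, 4.56 and 8.21 CPM in CAF-200, a ratio of 26.8. *Bmpr1b* (chr3:141837136-142169425), a type I receptor for bone morphogenetic proteins (BMPs) and growth differentiation factors, was 0.225 and 0.239 CPM in CAF-vec and 2.10, 2.32 and 2.74 CPM in CAF-200. It was among the steadier of the receptors, with the CAF-200 samples within a factor of 1.3. *Tarm1* (chr7:3486500-3502624), an immunoglobulin-like receptor of myeloid cells, was 0.0558 and 0.179 CPM in CAF-vec and 2.64, 1.65 and 2.99 CPM in CAF-200. *Bdkrb1*, the bradykinin receptor that is induced in injured tissue, was 0.476 and 0.338 CPM in CAF-vec and 2.35, 1.94 and 1.31 CPM in CAF-200. *Vmn2r79* (chr7:86996115-87044941), of the pheromone receptor genes, was 0.134 and 0.299 CPM in CAF-vec and 3.29, 3.19 and 3.99 CPM in CAF-200. Vomeronasal receptor genes have many near-identical copies, so reads assigned to *Vmn2r79* are uncertain.

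Matrix was represented by *Has2* and *Col28a1*. *Has2* (ENSMUSG00000022367, chr15:56665627-56694539), the main synthase of the matrix polysaccharide hyaluronan in fibroblasts, was 0.274 and 0.319 CPM in CAF-vec and 5.18, 4.75 and 8.18 CPM in CAF-200, a ratio of 20.4. *Col28a1*, a collagen of the von Willebrand factor A domain kind, was 0.276 and 0.168 CPM in CAF-vec and 1.13, 1.07 and 1.05 CPM in CAF-200, the second smallest spread of the 46.

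Enzymes of redox, lipid and sugar chemistry made up 6 of the genes. *Gpx3* (ENSMUSG00000018339, chr11:54902453-54910377), the secreted glutathione peroxidase of plasma, was 0.326 and 0.168 CPM in CAF-vec and 11.5, 12.2 and 11.3 CPM in CAF-200. It had the highest mean of the 46 genes in CPM and per kilobase, with nearly equal values in the CAF-200 samples, 4.03 log2 units apart from CAF-vec (standard error 0.137). *Acsbg1*, which activates very long chain fatty acids, was 0.0184 and 0.0196 CPM in CAF-vec and 2.05, 1.44 and 2.25 CPM in CAF-200. *Akr1c18*, which inactivates progesterone in the mouse, was 0.116 and 0.109 CPM in CAF-vec and 2.12, 2.35 and 2.23 CPM in CAF-200, but its close paralogs could share reads with it. *Galnt17*, *Apol8* and *Oacyl* had CAF-200 means of 1.94, 1.62 and 1.29 CPM and CAF-vec means of 0.302, 0.382 and 0.143 CPM.

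Among chaperone and ubiquitin ligase components (4 genes), *Hspb1* (chr5:135887919-135889563), the small heat shock protein HSP27 that also regulates actin filaments, was 0.303 and 0.389 CPM in CAF-vec and 6.98, 5.26 and 4.86 CPM in CAF-200. *Fbxl7*, an F-box substrate adaptor, was 0.0961 and 0.0990 CPM in CAF-vec and 1.94, 2.09 and 1.86 CPM in CAF-200, so that both groups were tight. *Ube2ql1* was listed at 0 and at 0.139 CPM in CAF-vec and was 1.56, 1.34 and 2.32 CPM in CAF-200. *Nhlrc1*, which encodes the ligase malin, had group means of 0.356 and 1.25 CPM.

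Neuronal adhesion and membrane proteins numbered 6. *Lrrc4c* (chr2:96318169-97631666), a synaptic ligand of netrin-G1, was 0.325 and 0.289 CPM in CAF-vec and 3.16, 2.79 and 3.10 CPM in CAF-200. *Nrcam*, an adhesion molecule of the L1 family, was 0.324 and 0.319 CPM in CAF-vec and 1.07, 1.10 and 1.75 CPM in CAF-200. *Elfn1*, *Neto2*, *Syngr4* and *Nkain2* had CAF-200 means of 1.88, 1.70, 1.25 and 1.02 CPM. *Slc8a1*, the plasma membrane sodium-calcium exchanger, stands with *Tspan18* among the other membrane proteins and was 0.0767 and 0.0591 CPM in CAF-vec and 1.42, 1.70 and 1.73 CPM in CAF-200.

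Regulators of transcription, chromatin and translation made up 5 genes. *Ebf2*, a transcription factor known from brown fat precursors and stromal cells, was 0.445 and 0.338 CPM in CAF-vec and 2.23, 2.06 and 2.22 CPM in CAF-200. *Nr1h3*, the oxysterol receptor LXRα, was 0.426 and 0.258 CPM in CAF-vec and 1.20, 1.23 and 1.54 CPM in CAF-200. *E2f2*, a cell cycle factor, was 0.494 and 0.479 CPM in CAF-vec and 1.15, 1.07 and 1.03 CPM in CAF-200, the smallest ratio of all. *Eif4e3*, a cap-binding protein, had a CAF-200 mean of 1.94 CPM and a CAF-vec mean of 0.157 CPM. *Hist1h4a*, for histone H4, was listed at 0 and at 0.260 CPM in CAF-vec and was 1.27, 1.04 and 1.25 CPM in CAF-200, and its near-identical copies and mostly non-polyadenylated mRNA make the value uncertain.

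Cytoskeletal and cornified envelope proteins were the last named group, with 5 genes. *Sprr2h* (chr3:92385685-92387324), a small proline-rich protein of the cornified envelope of keratinocytes, had a listed value of 0 in CAF-vec 1 and 2 and was 1.67, 1.23 and 2.75 CPM in CAF-200. No fold is given for it, and it has close paralogs. *Myo5b*, a vesicle motor of polarized epithelial cells, was 0.143 and 0.410 CPM in CAF-vec and 2.30, 2.07 and 1.79 CPM in CAF-200. *Fsd1* had group means of 0.382 and 1.36 CPM.

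The β-thymosins *Tmsb15l* and *Tmsb15b1*, which bind monomeric actin, need a reservation. They overlap on the same strand of chromosome X, are the only genes of the 46 within 1 Mb of each other, share a promoter window, and overlap *Tmsb15b2*, so that reads could be split among them. *Tmsb15l* was 0.223 and 0.369 CPM in CAF-vec and 1.05, 1.68 and 1.94 CPM in CAF-200. *Tmsb15b1* was 0.267 and 0.109 CPM in CAF-vec and 1.94, 1.32 and 1.08 CPM in CAF-200, the reverse order of *Tmsb15l* among the CAF-200 samples. *Tmsb15b2* was 10.4 and 0.423 CPM in CAF-vec and 9.39, 5.82 and 3.32 CPM in CAF-200 (limma adjusted *p* = 0.496). The sum of these 3 genes was 10.9 and 0.901 CPM in CAF-vec and 12.4, 8.82 and 6.34 CPM in CAF-200, so that the groups overlapped at this locus.

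The 4 genes given no role here were *Tprg*, *D7Ertd443e*, *D330045A20Rik* and *Gm20721*, with CAF-200 means of 2.22, 1.95, 1.86 and 1.28 CPM. *Gm20721* lies antisense to *Gnas*, which was 1269 CPM or more in every sample, so its value of 1.09 to 1.48 CPM in CAF-200 is uncertain. In all, 20 of the 46 overlap another annotated gene, 14 of them a gene on the opposite strand and 6 a protein-coding gene. The genes lay on 19 chromosomes with at most 5 on any of them.

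The spread of the 46 genes among the CAF-200 samples, set beside that of other genes, depended on their level. The SD of log2(CPM) over the CAF-200 samples had a median of 0.194 for the 46 and 0.116 for 2998 other coding genes with a CAF-200 mean in the same range, but these medians mix levels, since 29 of the 46 and 362 of the others were between 1 and 2 CPM. At 2 CPM or more the medians were 0.263 for 17 of the genes and 0.109 for 2636 others, whereas between 1 and 2 CPM they were 0.159 for 29 of the genes and 0.190 for 362 others, the reverse order. The highest CAF-200 sample exceeded the lowest by more than 1.5 times in 16 of the 46 (34.8%) and in 7.0% of the others. Between 1 and 2 CPM these shares were 31.0% and 17.1%, and at 2 CPM or more 41.2% and 5.61%, so that this share, unlike the median SD, was larger in the 46 at both levels. The upper level is not matched, since only 4 of the 17 genes reached 5 CPM while the range ran to 11.7 CPM. These values therefore cannot show a larger spread at equal level. The largest SDs were those of *Sprr2h* (0.583), *Rarres2* (0.475) and *Tmsb15l* (0.459), and the smallest those of *Nkain2* (0.0310), *Col28a1* (0.0533) and *Gpx3* (0.0557). A small spread at the limit of 1 CPM is favored by the choice, which needed every CAF-200 sample to pass it.

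No CAF-200 sample was highest throughout. CAF-200 1 was highest for 21 genes, CAF-200 2 for 7 and CAF-200 3 for 18, which is 45.7%, 15.2% and 39.1% of the 46 beside 39.5%, 30.1% and 30.4% of the other genes in the range. Of the 16 genes with more than a 1.5-fold range, CAF-200 3 was highest for 9, among them *Lgr6*, *Has2*, *Tarm1* and *Sprr2h*. CAF-200 1 was highest for 5 of them, including *Wnt11*, *S100a8*, *Bdkrb1* and *Fgf18*. Leaving out a CAF-200 sample can only add genes to the choice, and it added 4 to 6.

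**Figure D3:**
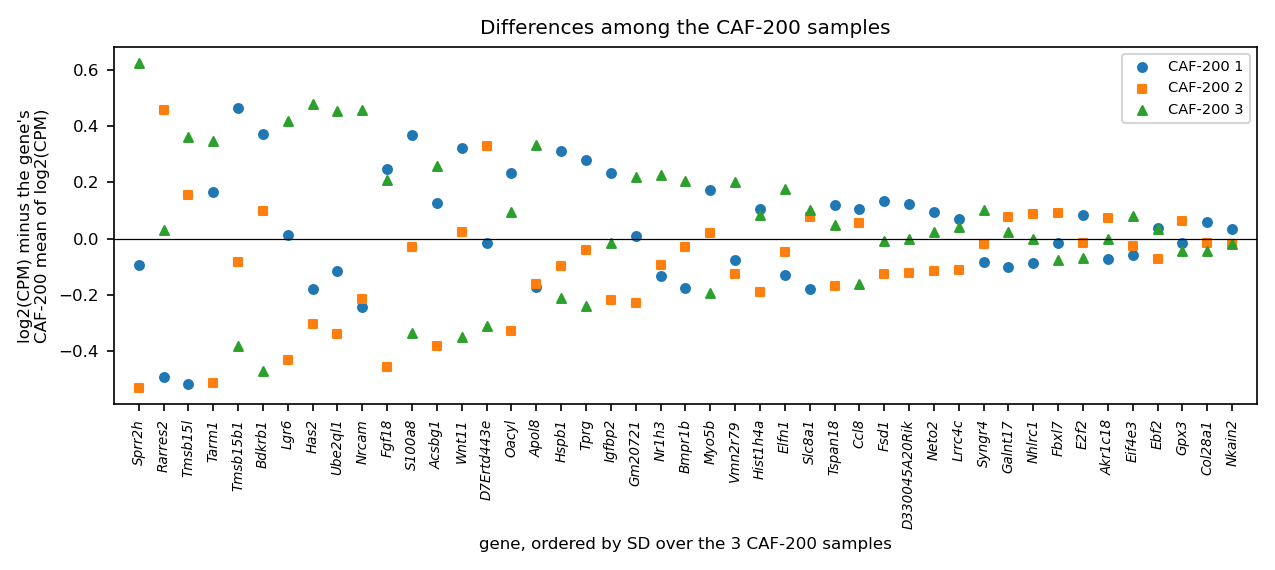
Deviation of each CAF-200 sample from the mean of the 3 samples on log2(CPM), for 45 of the 46 genes ordered by their SD, with the largest at the left. The triangles of CAF-200 3 are at the top for *Sprr2h*, *Has2* and *Lgr6* and at the bottom for *Bdkrb1*, *S100a8* and *Wnt11*.

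To see whether relatives of these genes differed too, 26 families were drawn up by gene name and function, holding 27 of the 46 genes and 131 relatives. Of 60 relatives expressed highly enough to be tested, 4 were higher in CAF-200 (6.67%, beside 2.37% of all genes tested) and 2 lower (3.33%, beside 2.35%), with a median log2 fold-change of 0.011. Higher were *Ccl2* (2.31 log2 units, limma adjusted *p* = 0.0057) and *Ccl7* (1.54, limma adjusted *p* = 0.00964), the chemokine neighbors of *Ccl8*. *E2f8* (1.47, limma adjusted *p* = 0.00589) and *Tmsb4x* (1.23, limma adjusted *p* = 0.00764) were the others. *Ccl2* was 15.7 and 32.0 CPM in CAF-vec and 114, 125 and 101 CPM in CAF-200, without overlap.

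Most families had a single member that passed the limits while its relatives were either absent or already expressed. Beside *Lgr6*, the receptor *Lgr4* was 7.91 and 8.59 CPM in CAF-vec and 12.6, 12.5 and 13.4 CPM in CAF-200, 0.61 log2 units and so under the size required (limma adjusted *p* = 0.00953), and *Lgr5* was at most 0.271 CPM. Their ligand *Rspo2* fell from 87.1 and 91.5 CPM to 12.9, 14.4 and 11.9 CPM, -2.73 log2 units (limma adjusted *p* = 0.000837), and *Rspo1*, *Rspo3* and *Rspo4* were under 0.5 CPM in every sample.

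Among the other hyaluronan synthases, *Has1* was 0.944 and 0.277 CPM in CAF-vec and 0.972, 0.817 and 1.37 CPM in CAF-200 (limma adjusted *p* = 0.226), and *Has3* was under 0.5 CPM throughout. *Bmpr1a*, the widely expressed counterpart of *Bmpr1b*, had a log2 fold-change of -0.35 (limma adjusted *p* = 0.031). The cholesterol exporter *Abca1*, a known target gene of the receptor that *Nr1h3* encodes, fell from 25.6 and 23.0 CPM to 9.58, 9.63 and 8.35 CPM (-1.36 log2 units, limma adjusted *p* = 0.00268). None of the 4 other glutathione peroxidases tested was past both thresholds in limma, 1 was positive and 1 negative at an unadjusted *p* under 0.05, and *Gpx7* had a log2 fold-change of -0.58 (limma adjusted *p* = 0.00891). *Sprr1a*, the other small proline-rich gene tested, was 1.48 and 2.28 CPM in CAF-vec and 5.66, 4.30 and 6.34 CPM in CAF-200 (1.32 log2 units, limma adjusted *p* = 0.0106). *Bdkrb2*, *Neto1*, *Myo5c*, *Acsbg2*, *Fgf8* and *Fgf17* were under 0.5 CPM in every sample.

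None of the 46 genes is on the lists of epithelial genes or cell type markers, and 1 (*Ccl8*) is among cytokines and chemokines. Of 43 epithelial genes 10 were tested, none was higher and *Perp* was lower (-1.98 log2 units, limma adjusted *p* = 0.00254), with a median of -0.46 over those tested. At an unadjusted *p* under 0.05 in limma, 2 of the 10 had a positive and 5 a negative log2 fold-change. *Cdh1*, *Epcam*, *Esrp1* and *Grhl2*, which define epithelium, were under 0.5 CPM in every sample, as were 32 of the list in all. *Grhl1* and *Esrp2*, paralogs of *Grhl2* and *Esrp1*, had log2 fold-changes of 0.89 and 0.78 (limma adjusted *p* = 0.00805 and 0.0516), below the size that a call required. *Grhl1*, an epithelial transcription factor, was 0.553 and 0.589 CPM in CAF-vec against 1.48, 1.54 and 1.44 CPM in CAF-200, without overlap. The summed level of the list was 52.5 to 64.2 CPM in CAF-vec against 37.6 to 40.8 CPM in CAF-200. Of 12 lung epithelium markers 11 were under 0.5 CPM throughout.

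**Figure D4:**
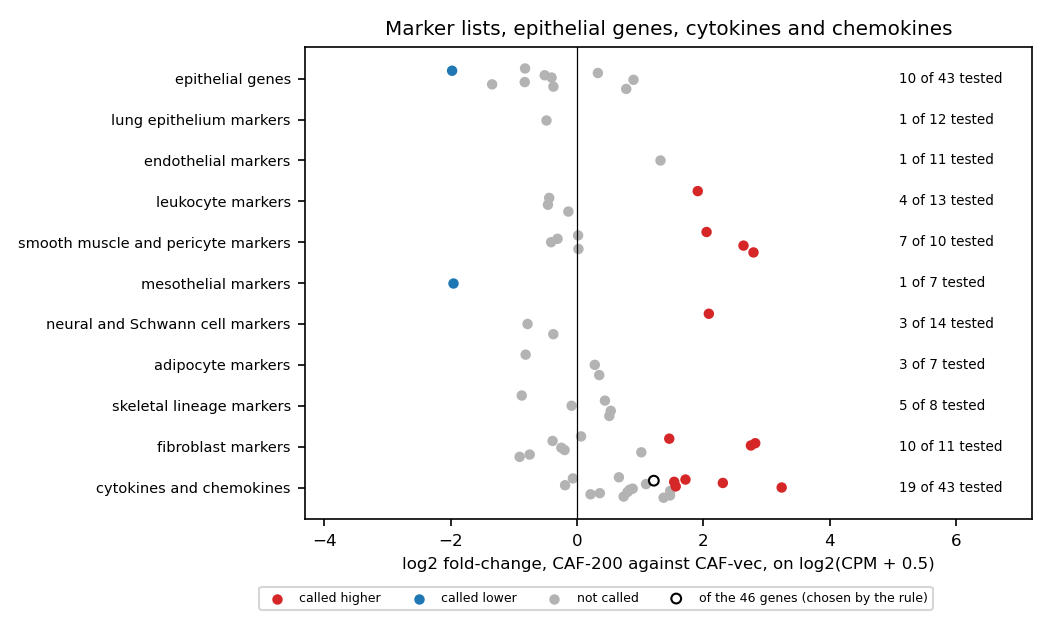
Log2 fold-change of the genes tested on each list (CAF-200 against CAF-vec, on log2(CPM + 0.5)), 1 point a gene, with the number tested of those on the list at the right. Red points passed an adjusted *p* of 0.01 and a log2 fold-change above 1, blue points the same downward, and the open circle is *Ccl8*, 1 of the 46 chosen genes; no epithelial gene is red.

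Of the cytokine and chemokine list 18 genes beside *Ccl8* were tested, 5 were higher (*Cxcl1*, *Cxcl5*, *Ccl17*, *Ccl7* and *Ccl2*), none was lower (of all genes tested, 2.37% were higher and 2.35% lower), and 16 had a positive and 2 a negative log2 fold-change, with a median of 0.99 beside -0.094 for all genes tested. At an unadjusted *p* under 0.05 in limma, 14 were positive and 0 negative. *Cxcl1*, a neutrophil chemoattractant, was 2.01 and 2.43 CPM in CAF-vec and 27.1, 29.5 and 19.7 CPM in CAF-200 (3.24 log2 units, limma adjusted *p* = 0.00145). *Cxcl5*, with the same receptor, was listed at 0 and at 0.00975 CPM in CAF-vec and was 0.842, 1.15 and 0.993 CPM in CAF-200, which falls short of 1 CPM in CAF-200 1 and CAF-200 3 and so keeps it out of the 46. The summed level of the list was 5427 and 7553 CPM in CAF-vec against 6090 to 6773 CPM in CAF-200. Most of this sum was *Cxcl12*, a chemokine of stromal cells, which was 4701 and 6699 CPM in CAF-vec against 4946, 5269 and 4569 CPM in CAF-200, with overlap between the groups.

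Markers of other cell types were checked, since in bulk RNA fewer cells of a type and less RNA per cell cannot be told apart. Of 13 leukocyte markers 4 were tested, *Lyz2* was higher and the other 3 (*Cd14*, *Csf1r* and *Cd68*) had log2 fold-changes of -0.44, -0.46 and -0.14, with a median of -0.29. *Ptprc* and *Adgre1* were under 0.5 CPM in every sample, like 9 of the list in all, and the sum of the list was 13.5 to 15 CPM in CAF-vec against 15.6 to 16.7 CPM in CAF-200. Of 11 endothelial markers 9, including *Pecam1* and *Cdh5*, were under 0.5 CPM in every sample. The 1 tested, *Egfl7*, was listed at 0 and at 0.330 CPM in CAF-vec against 1.47, 1.19 and 0.718 CPM in CAF-200 (1.31 log2 units, limma adjusted *p* = 0.027), short of a call. The sum of the list was 0.506 to 1.06 CPM in CAF-vec against 1.26 to 1.88 CPM in CAF-200, most of the latter being *Egfl7*. Of 14 neural and Schwann cell markers 3 were tested, 1 with a positive and 2 with a negative log2 fold-change. *Tubb3* alone was higher, at 4.38 and 3.70 CPM in CAF-vec against 19.0, 19.1 and 18 CPM in CAF-200 (2.09 log2 units, limma adjusted *p* = 0.00105). *S100b* had a log2 fold-change of -0.78 (limma adjusted *p* = 0.0236), and *Sox10* and *Snap25* were under 0.5 CPM. The list summed to 7.07 to 8.84 CPM in CAF-vec against 21.2 to 22 CPM in CAF-200, most of the latter being *Tubb3*.

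Of the smooth muscle and pericyte markers 7 were tested, 5 with a positive and 2 with a negative log2 fold-change and a median of 0.021, and *Acta2*, *Cnn1* and *Actg2* were higher. The list had sums of 112 and 142 CPM in CAF-vec against 696 to 750 CPM in CAF-200, most of it *Acta2*, while *Myh11*, *Rgs5* and *Kcnj8* were under 0.5 CPM in every sample. *Acta2*, the smooth muscle actin of myofibroblasts, was 92.8 and 126 CPM in CAF-vec and 661, 653 and 706 CPM in CAF-200 (2.63 log2 units, limma adjusted *p* = 0.00123). The paper reported the opposite direction for its protein, α-SMA, which stained less in CAF-200. Of 10 fibroblast markers tested 5 had a positive and 5 a negative log2 fold-change, with a median of -0.068. *Dcn*, *Lum* and *Thy1* were higher, with log2 fold-changes of 2.75, 2.82 and 1.46 (limma adjusted *p* = 0.000837, 0.000929 and 0.0029). At an unadjusted *p* under 0.05 in limma, 4 of the 10 were positive and 2 negative. The sum of the fibroblast list was lower in CAF-200 without overlap, at 10761 to 11750 CPM against 13384 and 17245 CPM in CAF-vec. *Col1a1*, which encodes a chain of type I collagen, was 4613 and 2003 CPM in CAF-vec against 1719, 1599 and 1543 CPM in CAF-200 (-0.91 log2 units, limma adjusted *p* = 0.0982). Among 7 mesothelial markers *Msln* was lower and the other 6 were under 0.5 CPM throughout, and no adipocyte (7 listed) or skeletal lineage marker (8 listed) was past the thresholds in limma, where each of these lists had 1 positive and 1 negative gene at an unadjusted *p* under 0.05. The part of these genes in the levels of the 46 was not tested.

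Promoters of the 46 genes were examined because they went from near silence to a measurable level together. RefSeq promoter windows (250 bases before to 50 after the start, GRCm38.p6) were found for 33 of the 46 and for 16492 coding genes of the table. Shares are of genes that hold a sequence in any of their windows. The sequence TATAAA on the gene's own strand, beginning 40 to 20 bases before the start, was in 4 of the 33 genes (12.1%, Wilson 95% interval 4.82 to 27.3) and in 3.01% of all those coding genes. These 4 windows are shown from 60 bases before to 40 after the start, with the TATA motif in capitals, since they are the ones that hold it at the usual place.
S100a8: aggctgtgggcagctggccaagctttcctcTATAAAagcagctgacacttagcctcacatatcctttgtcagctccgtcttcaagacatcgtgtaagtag
Ccl8: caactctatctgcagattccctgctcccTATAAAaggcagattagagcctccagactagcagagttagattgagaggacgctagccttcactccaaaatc
Sprr2h: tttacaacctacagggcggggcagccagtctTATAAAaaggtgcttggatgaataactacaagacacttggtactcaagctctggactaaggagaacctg
Wnt11: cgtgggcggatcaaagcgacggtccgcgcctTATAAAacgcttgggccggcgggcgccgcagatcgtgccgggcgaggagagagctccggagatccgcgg
They lie at chr3:90669011-90669110, chr11:82115125-82115224, chr3:92385625-92385724 and chr7:98835052-98835151, all on the plus strand, in the order printed. The window of *Wnt11* differs from the others in holding 17 CG dinucleotides, against 2, 1 and 1. On either strand and anywhere in the 300 bases, TATAAA was in a window of 18.2% of the 33 genes and of 14.4% of all.

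The E-box bound by ZEB1, CAGGTG or its complement CACCTG, was about as frequent as in all coding genes with a window. It was in a window of 8 of the 33 genes (24.2%, Wilson 95% interval 12.8 to 41.0) and of 22.2% of all. Among the 14 genes under 0.25 CPM in CAF-vec, 11.1% of those with a window held it, a share that 1 gene moves widely. A gene with several windows had more chances to hold the motif, and *Bmpr1b*, *E2f2*, *Igfbp2*, *Neto2* and *Nr1h3* had more than 1. The AP-1 motif TGANTCA, searched on both strands, was in 3 (9.09%) and in 8.16% of all. The E-box genes were *Vmn2r79*, *Igfbp2*, *Bmpr1b*, *Galnt17*, *Neto2*, *Nr1h3*, *Nrcam* and *E2f2*. Stretches of 50 bases around the motif, in capitals, are shown for the 3 of them that act in growth factor, BMP or oxysterol signaling, read 5′ to 3′ on the gene's strand.
Igfbp2: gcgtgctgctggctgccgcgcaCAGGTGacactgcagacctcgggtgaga
Nr1h3: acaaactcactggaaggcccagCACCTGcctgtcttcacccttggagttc
Bmpr1b: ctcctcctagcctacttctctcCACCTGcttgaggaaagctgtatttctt
They lie at chr1:72825384-72825433 (plus strand), chr2:91195276-91195325 (minus) and chr3:141982393-141982442 (minus), in the order printed. All 3 lie inside the annotated gene, at 1 of several starts, and which start these cells use was not measured. The stretch of *Igfbp2* runs from 3 bases before to 47 after its start, so its motif lies after the start. A match of letters is a description and no binding was measured.

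The median number of CG dinucleotides was lower in these promoters than in all, while the quartiles were close (5 and 24 in the 33 genes, 4 and 26 in all). Taking the highest window of each gene, the median was 9 in the 33 and 15 in all, with a range of 0 (*Col28a1*) to 47 (*Fgf18*) in the former, and 17 (51.5%) had under 10 beside 38.6% of all. Promoters rich in CG, such as those of *Fgf18* (47), *Wnt11* (45) and *Nkain2* (43), stood beside poor ones, such as *Sprr2h* (1), *Vmn2r79* (1), *Acsbg1* (2) and *Ccl8* (2).

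**Figure D5:**
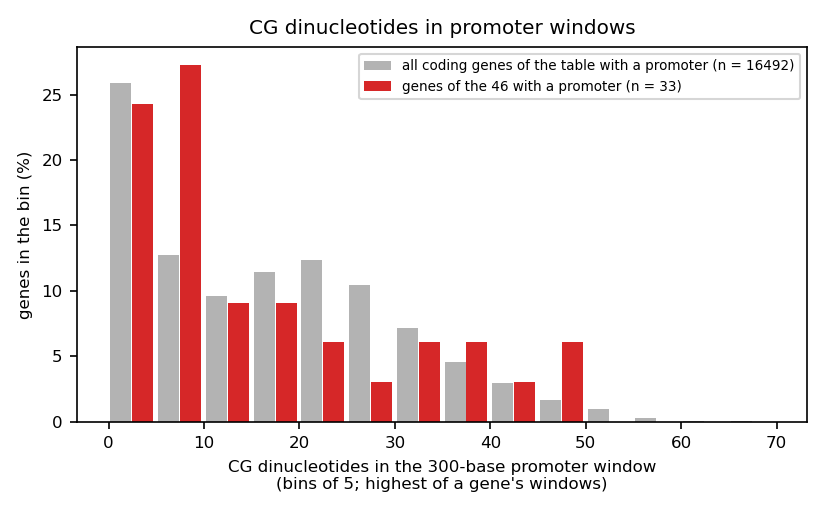
Share of genes (y axis, percent) by the number of CG dinucleotides in the 300-base promoter window (x axis, bins of 5), for the 33 chosen genes with a window (red) and all 16492 coding genes of the table with one (grey). The red bars are taller in the bin from 5 to 9 and lower between 15 and 29.

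Seed matches of the overexpressed miRNAs were also counted in the longest annotated 3′-UTR of each gene (GENCODE M21, GRCm38). A match to the seed shared by miR-200b and miR-429 was in 4 of the 46 (8.70%) and in 15.7% of 12102 coding genes tested, and a match to miR-200a in 6 (13.0%) and in 20.8%. Either was in 8 (17.4%) and in 30.2%, with median UTR lengths of 916.5 and 1173 bases. *Has2* and *Bmpr1b* had both, *Acsbg1* and *Tspan18* that of miR-200b and miR-429 alone, and *Nrcam*, *Slc8a1* and *Vmn2r79* were among those with that of miR-200a alone.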

How the data were processed

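Stranded mRNA libraries of CAF-vec (2 samples) and CAF-200 (3 samples) were sequenced by the authors. The authors deposited 1 table of normalized values, which are CPM (TMM) and not whole counts. The submitters' processing notes name FastQC, cutadapt, Trimmomatic, STAR, RSEM, edgeR and the build GRCm38 (mm10). Whole reads could not be recovered from these values, so no count test was run. All sample columns were used and 0 were left out.

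The 46 genes, lists, families and roles were chosen with earlier results of these data known; families, roles and the UTR counts were added after the genes were known. Genes named with every sample's value were those with the 12 highest CAF-200 means, those at 0 in both CAF-vec samples, those next to the limits, those with the 3 largest or smallest SDs and those on a list; further genes were chosen by role after their values were seen. Of non-members, *Zeb1*, *Zeb2* and genes of lists and families are named. The values of 1 of the 46 genes are not reported here, though it is in the counts.

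Of 21835 genes, the 12175 that reached 0.5 CPM in 2 or more samples were fitted on log2(CPM + 0.5) by limma (version 3.58.1, R 4.3.3) using lmFit and eBayes with a variance trend, and *p* values were adjusted by Benjamini-Hochberg. A call required both an adjusted *p* below 0.01 and a log2 fold-change above 1 in size. Alternatives were other pseudocounts, filters, scalings, thresholds and limits, no variance trend, a replicate block and each sample left out. Python 3.11.15 with pandas 2.3.3 was used, and coordinates are from GENCODE M21.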

Additional observations from a re-analysis of the deposited data

How the results depend on the processing

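The number of genes that met the limits moved with them from 46 to 14 under 0.25 CPM in CAF-vec, 106 under 1 CPM in CAF-vec, 12 at 2 CPM or more and 134 at 0.5 CPM or more in CAF-200. Leaving out 1 sample gave 50 to 77 genes, the highest without CAF-vec 2, and scaling to the same median gave 50. The spread among CAF-200 samples had a median of 0.153 to 0.205 in every alternative run. The share of genes with the E-box in a window was 11.1% for those under 0.25 CPM in CAF-vec and 33.3% for those at 2 CPM or more in CAF-200. These shares cover only those of the 14 and 12 genes that have a window, so 1 gene moves them widely. With no filter on low values, 27 genes in place of 289 were called higher, 4 of the 46 in place of 39, and 2 list genes in place of 13. Leaving out 1 sample gave 0 to 624 genes called higher, 0 to 43 of the 46 and 0 to 19 list genes. Without a CAF-200 sample, limma called 0, 1 and 0 genes higher, none of the 46 and no list gene, although 374 to 388 genes, 42 to 43 of the 46 and 17 to 19 list genes had a log2 fold-change above 1 at an unadjusted *p* under 0.05. Without CAF-vec 2 it called 624 genes and without CAF-vec 1 347, with the spread taken from CAF-200 alone. Lower calls, recomputed this way after seeing the data, numbered 286 with all samples, 0 without any 1 CAF-200 sample (415 to 484 with a log2 fold-change below -1 at an unadjusted *p* under 0.05), 298 without CAF-vec 1 and 906 without CAF-vec 2. The cause was not tested. A filter of at least 1 CPM in every sample leaves none of the 46 to fit. A replicate block gave 101 genes, 16 of the 46 and 10 list genes called higher. The labels do not say that a number marks a shared day or batch. Deviations of same-numbered samples were correlated at 0.25 and 0.13 over 2 pairs. With 2 CAF-vec samples the deviations of 1 mirror those of the other, so these values cannot decide whether same-numbered samples share a batch.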
